A study of Ambystoma mexicanum with 20 samples.

Results

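Mitochondrial respiration and glycolysis transcripts were followed through forelimb regeneration of the axolotl (Ambystoma mexicanum), with and without the histone deacetylase inhibitor MS-275. A transcript entered the set when the study's lists of regulated transcripts paired it with a symbol that began with NDUF, UQCR, COX and a digit, ATP5, SDH, IDH, MDH, PFK, ALDO, PGK, PGAM, ENO and a digit, PKM, LDH, GAPDH, PYG or PDH. The rule found 151 transcripts of 101 symbols among the 180605 transcripts measured, of which 4778 carried a symbol in the lists at hand. No transcript with a PGK symbol was found by it. The set held 44 transcripts of complex I, 5 of complex II, 10 of complex III, 25 of complex IV and 26 of ATP synthase. It also held 12 transcripts of assembly factors and inhibitors, 3 of pyruvate dehydrogenase, 9 grouped as tricarboxylic acid cycle and 17 of glycolysis and glycogen breakdown. The tricarboxylic acid cycle group was all isocitrate and malate dehydrogenases, with the cytosolic IDH1 (1 transcript) and MDH1 (3 transcripts) among them.

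The limbs of juvenile animals were amputated through the upper arm, and epidermis and soft tissue (ST, what lay beneath the epidermis) were taken apart on the day of amputation (0 dpa) and after 3 and 8 days (3 and 8 dpa). The groups of each tissue were the homeostatic limb at 0 dpa, the regenerating limb at 3 and 8 dpa with DMSO, and the regenerating limb at 3 and 8 dpa with 25 mM MS-275 injected under the wound epidermis every other day. The labels give the 0 dpa samples the treatment DMSO as well, whereas the methods describe them as tissue of the homeostatic limb. Each of the 10 groups had 2 replicates, each a pool of both forelimbs of 2 animals, so that 20 libraries were compared and p-values measure the spread between pools. Per the methods the 20 libraries came from 20 animals, which would put ST and epidermis of a group in the same limbs. The sample names number ST and epidermis alike in the 8 dpa and MS-275 groups. At 3 dpa with DMSO, and in part at 0 dpa, their numbers differ. Which ST and epidermis samples share animals was not given, and fits across both tissues treated all samples as independent. No strain, genotype or sex was given in the labels or the methods, which also differ in the volume of the injection, microlitres in the labels and millilitres in the methods.

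Mitochondria pass electrons from NADH and succinate through complexes I to IV to oxygen, and ATP synthase uses the proton gradient that this builds. Glycolysis splits glucose to pyruvate in the cytosol, and lactate dehydrogenase turns pyruvate to lactate where oxidation does not take it. Skeletal muscle is rich in both pathways and uses its own isoforms of several of these enzymes, among them PYGM, PFKM, ALDOA, PGAM2 and ENO3 in glycolysis and COX7A1 in complex IV. The deposited values were in TPM, a measure of transcript abundance in which values are scaled to transcript length, so that levels can be set side by side between transcripts, and sum to the same total in every library, so that a few very abundant transcripts lower all others.

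The lists that gave the symbols were made from control limbs (each pair of the 3 time points, in ST and in epidermis), so a transcript could enter the set only if it had been listed in one of those contrasts. Of the 151 transcripts, 110 were listed for ST only, 15 for epidermis only and 26 for both. Changes of the control limb over time and differences between the tissues are therefore given as a description. Contrasts between MS-275 and DMSO shared the DMSO libraries with the lists, and their members not listed through those libraries are counted apart. Members that a list of the same libraries did not hold are no unselected group either, since the lists held regulated transcripts. MS-275 at 8 dpa vs. 3 dpa compared groups that were in none of the listed contrasts at hand, although the study's fit for the lists took its spread from all libraries of a tissue. All 151 transcripts passed the filter (above 0 TPM in at least 5 of 10 samples) in ST and 150 passed in epidermis, where 1 of the PFKM transcripts did not. Of the 101 symbols, 37 had more than 1 transcript (87 transcripts), and how the reads of such a symbol were divided among its transcripts is uncertain.

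In the libraries as a whole, between 72566 and 92979 transcripts were above 0 TPM, and the 10 most abundant transcripts took 6.48% to 26.1% of the total, most in a homeostatic ST library. At 0 dpa the 74 transcripts of skeletal muscle markers summed to 36046 and 61486 TPM in ST and to 111 and 7.25 TPM in epidermis, and 23 epidermal marker transcripts summed to 169 and 210 in that ST and to 3038 and 3193 in that epidermis. For muscle and epidermal markers the labelled tissues thus carried their own. Connective tissue markers (16 transcripts) were not higher in ST, with 1548 and 1755 TPM there and 1759 and 4062 TPM in epidermis. The 3 dpa MS-275 ST libraries stood apart with 911 and 2616 TPM of epidermal markers, against 63.2 and 153 TPM with DMSO. A called transcript below had an adjusted p under 0.05 (limma on log2(TPM + 0.1), Benjamini-Hochberg over all transcripts tested, two-sided), and fold changes are on that log2 scale. Counts of members with an unadjusted p under 0.05 are a description, since the share of all transcripts with such a p was not counted. Each contrast was also run on TPM rescaled so that the median transcript kept its level. This rescaling brought the median difference of all transcripts from 0.46 to -0.03 in ST at 3 dpa vs. 0 dpa and from 0.96 to 0.05 at 8 dpa vs. 0 dpa.

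At 0 dpa, the members took a larger part of the ST transcriptome than of the epidermal one. Their summed level was 58003 and 70477 TPM in ST and 14734 and 14357 TPM in epidermis. The 17 glycolysis and glycogen transcripts summed to 18285 and 30734 TPM in ST and to 1447 and 1691 TPM in epidermis, and the 110 transcripts of the respiratory chain and ATP synthase to 34332 and 34037 TPM against 11825 and 11181 TPM. In the contrast of ST with epidermis at 0 dpa, 123 of 151 members were higher and 3 lower (21.7% of all transcripts were called in either direction), with a median difference of 1.67 against -0.47 over all transcripts. Muscle ENO3 (beta enolase) reached 3036 and 6088 TPM in ST and 58.6 and 60.4 TPM in epidermis. PGAM1 (the phosphoglycerate mutase of non-muscle tissue) and PFKL (liver type phosphofructokinase) were, with 1 COX8A transcript, the 3 members lower in ST, with differences of -1.27 and -1.08 for the first 2, and with rescaling none of the 3 was called. At 8 dpa with DMSO, 26 members were higher in ST and 3 lower (16.2% of all transcripts called), and any 1 of the 4 libraries left out brought the total to between 15 and 18. In a piece of tissue, fewer cells of a type and less RNA per cell cannot be told apart.

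In control ST the level of the set was lower after amputation. The respiratory chain and ATP synthase went from 34332 and 34037 TPM at 0 dpa to 23037 and 19911 TPM at 3 dpa and to 17765 and 16904 TPM at 8 dpa. Each of the complexes took part, with complex I at 6745 and 6764 TPM, then 4499 and 3737 TPM, then 3511 and 3400 TPM. Glycolysis and glycogen transcripts went from 18285 and 30734 TPM to 17977 and 9365 TPM and to 6342 and 6492 TPM, so that 1 of the 3 dpa samples lay just under the lower 0 dpa sample and the 8 dpa samples were lowest. Of the 151 members, 55 were called lower and 5 higher at 3 dpa (15.3% of all transcripts called), and 105 lower and 11 higher at 8 dpa (30.0%). With rescaling, these were 119 lower and 3 higher at 3 dpa (5.29% and 5.89% of all transcripts) and 133 lower and 3 higher at 8 dpa (6.0% and 6.92%). Nothing is read from these counts, since the lists used the same libraries, and without the 3 dpa replicate 2 the calls at 3 dpa numbered 16, while without either 8 dpa replicate those at 8 dpa numbered 52 and 50. Of the 15 members that no ST list held, 3 were called higher and none lower at 3 dpa (6 had an unadjusted p under 0.05). At 8 dpa 7 were called higher and none lower. Their absence from lists of the same libraries was also a choice, so these 15 are no unselected check. The direction of these 15 depended on the scaling: with rescaling 1 was called higher and 1 lower at each time, and their median went from 0.22 to -0.56 at 3 dpa and from 0.82 to -0.51 at 8 dpa.

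The muscle markers moved with these levels. Their summed TPM was 36046 and 61486 at 0 dpa, 28673 and 11139 at 3 dpa and 4275 and 4793 at 8 dpa. All 74 were called lower at 8 dpa vs. 0 dpa (30.0% of all transcripts called in either direction). The marker transcripts of every cell type also came from the study's lists of control limbs, so this count is a description. In the 3 dpa control libraries, the replicate with more muscle marker TPM also had more glycolysis TPM (17977 against 9365). Leukocyte markers (35 transcripts) went the other way, from 207 and 225 TPM to 1914 and 1999 TPM and then 2039 and 1953 TPM, and connective tissue markers from 1548 and 1755 TPM to 2453 and 3790 TPM and then 9604 and 9664 TPM. Their part in the lower level of the set was not tested.

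**Figure D1:**
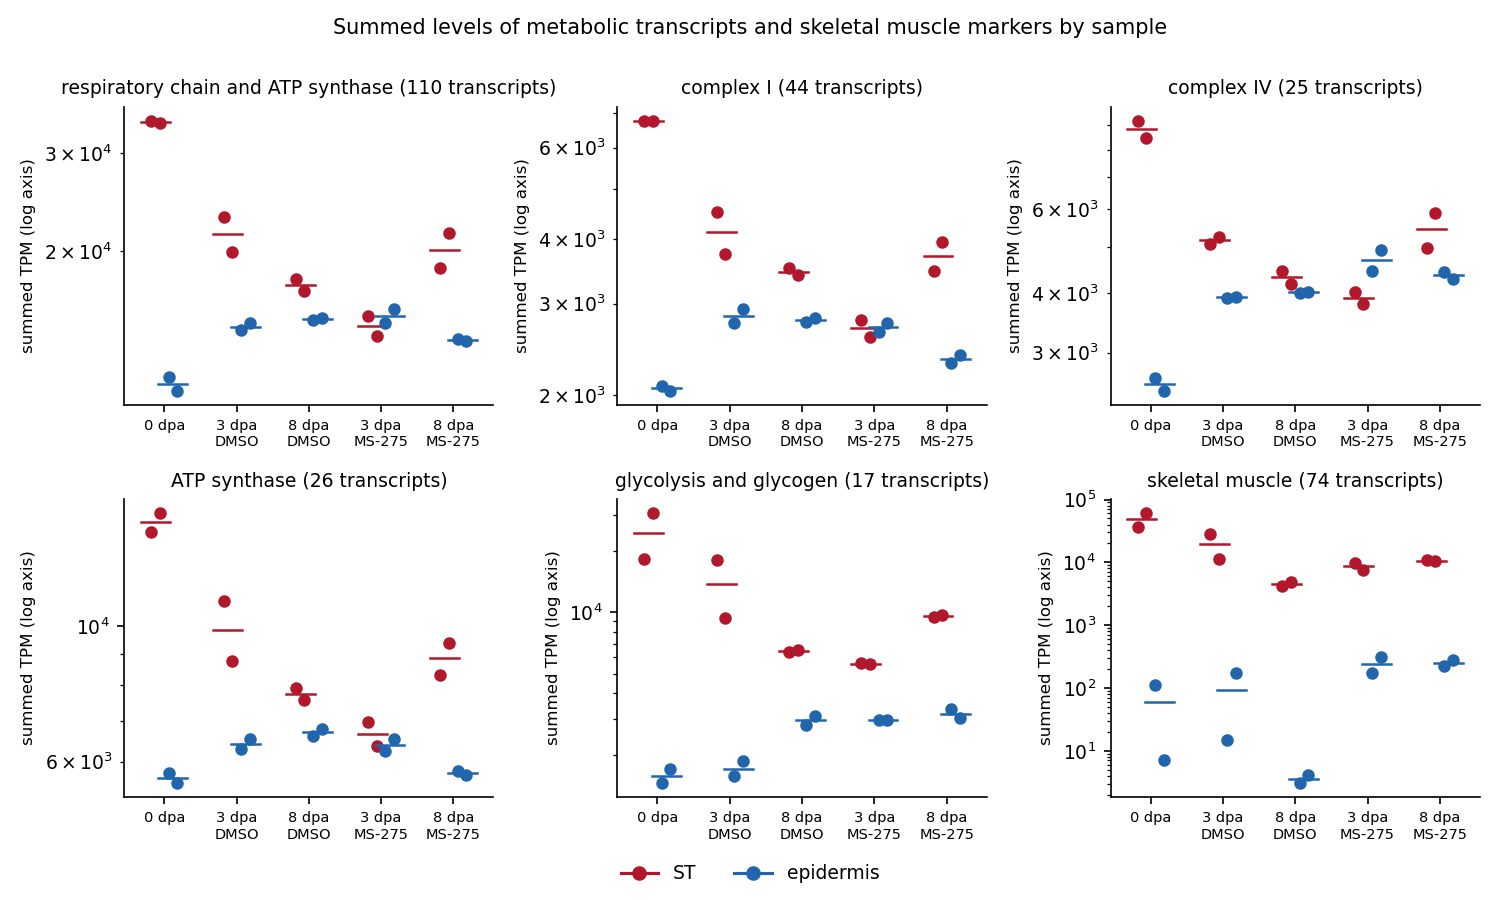
Summed TPM (log axis) of 6 sets of transcripts in each sample of ST and epidermis by days post-amputation and treatment, with a point for each sample and a line for each group mean. In ST, the respiratory chain and ATP synthase went from 34332 and 34037 TPM at 0 dpa to 17765 and 16904 TPM at 8 dpa with DMSO, while in epidermis they stayed between 11181 and 15711 TPM.

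Glycolytic enzymes showed the widest range in control ST. GAPDH, the dehydrogenase of the middle of the pathway, was at 8939 and 16120 TPM at 0 dpa, 9404 and 4691 TPM at 3 dpa and 2954 and 3122 TPM at 8 dpa. ALDOA, the muscle aldolase, went from 2140 and 2913 TPM to 1463 and 706 TPM and to 574 and 489 TPM. PYGM, the muscle glycogen phosphorylase, went from 416 and 739 TPM to 470 and 171 TPM and to 87.9 and 102 TPM. In all of these the 8 dpa samples lay below the 0 dpa samples, and the 3 dpa samples lay far from each other. The non-muscle isoforms ENO1, PGAM1 and PFKL were higher after amputation as deposited, whereas LDHB was lower. ENO1 (alpha enolase) was at 219 and 425 TPM at 0 dpa, 586 and 564 TPM at 3 dpa and 693 and 663 TPM at 8 dpa, and with rescaling its difference at 8 dpa vs. 0 dpa was -0.18 (adjusted p = 0.834 by limma). PGAM1 went from 5.79 and 5.97 TPM to 37.2 and 58.6 TPM and to 48.2 and 44.1 TPM, and PFKL from 2.95 and 1.71 TPM to 6.73 and 8.37 TPM and to 18.1 and 18 TPM. In PGAM1 and PFKL the 0 dpa samples lay below all samples of the regenerating ST. LDHB, the heart subunit of lactate dehydrogenase, went from 824 and 854 TPM to 503 and 309 TPM and to 348 and 332 TPM, summed over its 2 transcripts.

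Abundant members of each respiratory complex were also lower after amputation in control ST. In complex I, NDUFA3, an accessory subunit, was at 589 and 643 TPM at 0 dpa, 382 and 304 TPM at 3 dpa and 290 and 287 TPM at 8 dpa. In complex II, SDHB, the iron-sulfur subunit, went from 357 and 301 TPM to 156 and 123 TPM and to 125 and 123 TPM, summed over its 2 transcripts, whose split varied between the 3 dpa replicates. In complex III, UQCRFS1, the Rieske iron-sulfur protein, went from 483 and 441 TPM to 286 and 248 TPM and to 213 and 197 TPM. NDUFA4, a subunit of complex IV despite its name, went from 1075 and 965 TPM to 257 and 508 TPM and to 475 and 443 TPM, so that the 3 dpa replicates lay on either side of the 8 dpa samples. ATP5ME, a membrane subunit of ATP synthase and its most abundant transcript here at 0 dpa, went from 1933 and 1999 TPM to 1512 and 1255 TPM and to 923 and 844 TPM. ATP5MC2, a subunit of the proton-carrying ring, went from 1122 and 1511 TPM to 1041 and 843 TPM and to 808 and 827 TPM. The 0 dpa samples were the highest in all 6. UQCRH, the most abundant in complex III by mean TPM, went from 720 and 586 TPM to 583 and 561 TPM and to 405 and 386 TPM, summed over its 2 transcripts. In its main transcript the 0 and 3 dpa samples overlapped. In epidermis at 0 dpa ATP5MC2 had 929 and 916 TPM and NDUFA3 201 and 188 TPM.

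Abundant members of the tricarboxylic acid cycle and of pyruvate dehydrogenase were also lower after amputation in control ST. IDH2, the mitochondrial isocitrate dehydrogenase that makes NADPH, went from 909 and 1313 TPM at 0 dpa to 815 and 456 TPM and to 365 and 344 TPM. MDH2, the mitochondrial malate dehydrogenase, had 626 and 736 TPM, then 502 and 282 TPM, then 311 and 321 TPM in its abundant transcript. PDHA1, the catalytic subunit of pyruvate dehydrogenase, had 130 and 77.0 TPM, then 50.2 and 49.6 TPM, then 54.4 and 51.4 TPM. In each the 0 dpa samples were again the highest. ALDOC, the brain type aldolase, stayed below 10 TPM in all ST samples.

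The balance between paired isoforms was independent of the scaling of a library, because both isoforms came from the same one. The share of PFKM in the sum of PFKM and PFKL was 98.2% and 99.0% in ST at 0 dpa, 90.9% and 80.6% at 3 dpa and 32.7% and 34.3% at 8 dpa with DMSO. The muscle share of enolase (ENO3 of ENO3 and ENO1) went from 93.3% and 93.5% to 84.4% and 71.2% and to 40.7% and 45.4%. That of phosphoglycerate mutase (PGAM2 of PGAM2 and PGAM1) went from 97.8% and 98.4% to 77.7% and 53.1% and to 35% and 39.5%. In complex IV, COX7A1, the isoform of subunit VIIa in heart and skeletal muscle, went from 93.0% and 94.6% of COX7A1 and COX7A2 to 69.6% and 59.2% and to 39.3% and 44.0%. All 4 shares were lower at each step with no overlap between the groups. LDHA, the muscle subunit of lactate dehydrogenase, followed another course, with 48.4% and 47.7% of LDHA and LDHB at 0 dpa, 62.1% and 67.1% at 3 dpa and 55.7% and 56.7% at 8 dpa.

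The shares also differed between MS-275 and DMSO. At 8 dpa, PFKM made up 67.0% and 70.5% of PFKM and PFKL with MS-275 and 32.7% and 34.3% with DMSO, and COX7A1 made up 75.8% and 64.2% against 39.3% and 44.0%. ENO3 stood at 65.8% and 65.7% against 40.7% and 45.4%. At 3 dpa the order was the reverse, with PFKM at 73.4% and 72.9% against 90.9% and 80.6%, COX7A1 at 45.5% and 42.8% against 69.6% and 59.2%, and ENO3 at 53.0% and 45.3% against 84.4% and 71.2%. In both directions the MS-275 and DMSO samples did not overlap, and no test was run on the shares. In epidermis the muscle isoform of each of these pairs was mostly the minor one, with ENO3 between 7.48% and 24.3% and PFKM between 1.26% and 23.2%.

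**Figure D2:**
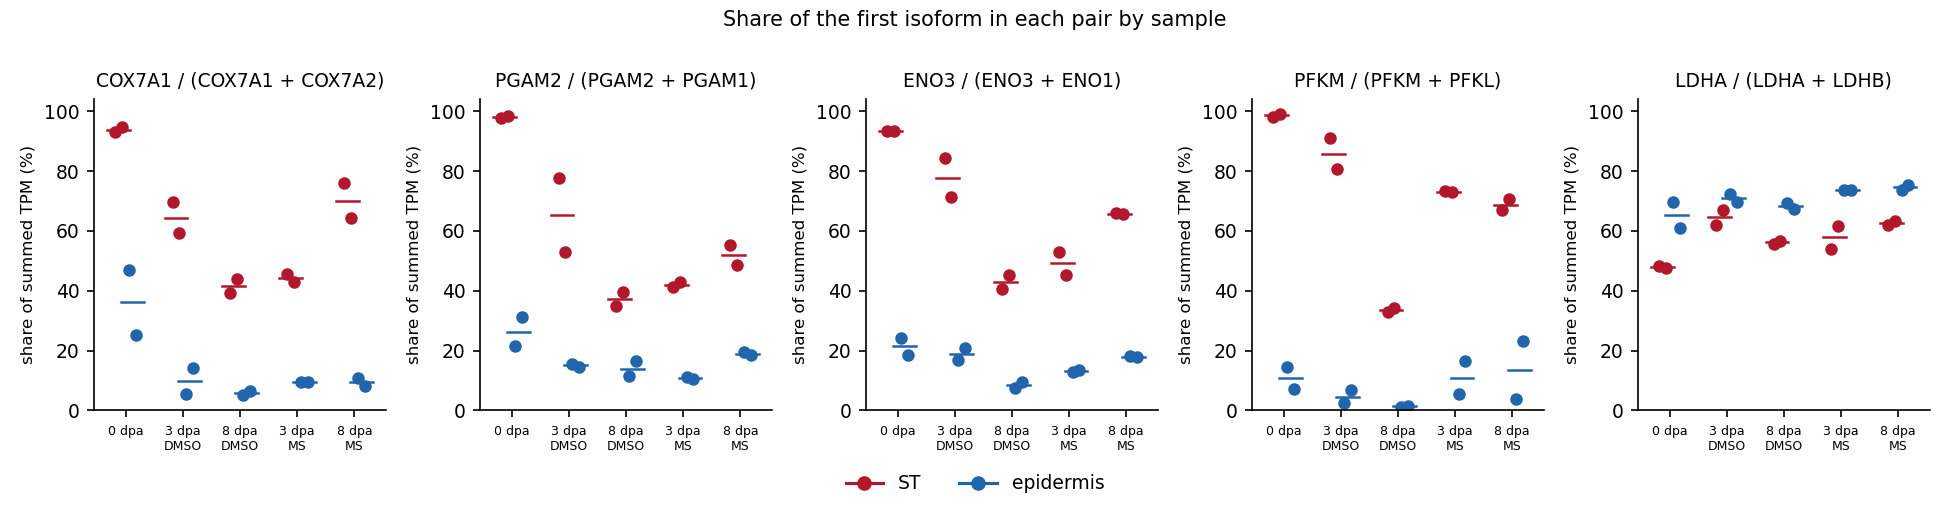
Share (%) of the first-named isoform in the sum of each of 5 isoform pairs, in each sample of ST and epidermis by days post-amputation and treatment, with a point for each sample and a line for each group mean. In ST the PFKM share was 32.7% and 34.3% at 8 dpa with DMSO and 67.0% and 70.5% with MS-275.

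At 3 dpa, ST treated with MS-275 had lower levels of the set than ST treated with DMSO. The respiratory chain and ATP synthase summed to 15239 and 14036 TPM with MS-275 and to 23037 and 19911 TPM with DMSO, and glycolysis and glycogen to 5606 and 5540 TPM against 17977 and 9365 TPM. The groups overlapped in neither sum. Of 151 members, 11 were called lower and none higher (3.48% of all transcripts were called, 0.616% lower). An unadjusted p under 0.05 was found in 98 members, a count without a share over all transcripts beside it. The median difference was -0.61 against 0.09 over all transcripts, and 137 members had a negative difference. Both MS-275 samples lay below both DMSO samples in 122 members and above them in 7, against 19.7% and 27.2% of all transcripts. Among the 63 members not listed through these DMSO libraries, 3 were called lower and none higher, 35 had an unadjusted p under 0.05, and the median was -0.58. With rescaling, 7 of the 151 were called lower, as were 0.551% of all transcripts.

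The lower levels ran through all roles. All 44 complex I transcripts had a negative difference (median -0.62, 3 called, 37 with an unadjusted p under 0.05). So did all 9 of the tricarboxylic acid cycle group, cytosolic IDH1 and MDH1 included (median -0.58, none called, 5 with an unadjusted p under 0.05). The medians of complexes II, III and IV were -0.26, -0.70 and -0.38, and that of ATP synthase was -0.55. Glycolysis and glycogen had the lowest median, -1.20, with 13 of 17 differences negative, 3 called and 13 with an unadjusted p under 0.05.

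Among the called members, both transcripts of PKM (pyruvate kinase, the last step of glycolysis) fell the most. The abundant PKM transcript had 1155 and 674 TPM with DMSO and 274 and 299 TPM with MS-275 at 3 dpa, and the minor one 152 and 57.9 TPM against 15.1 and 17.1 TPM. The groups overlapped in neither, although the DMSO samples differed between themselves. The differences were -1.62 (SE 0.33, n = 2 per group, adjusted p = 0.0415 by limma, a level 3.08 times lower) and -2.54 (SE 0.42, adjusted p = 0.0249 by limma, 5.80 times lower). Summed over its transcripts, PKM fell by 1.69 (adjusted p = 0.0408 by limma). PFKM, the muscle phosphofructokinase that commits sugar to glycolysis, had 12.5 and 9.31 TPM with DMSO and 3.76 and 4.01 TPM with MS-275 in its called transcript, a difference of -1.45 (SE 0.30, adjusted p = 0.0455 by limma). Neither PKM transcript was listed through the 3 dpa libraries of ST.

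Several enzymes with large differences missed the threshold. PYGM had 470 and 171 TPM with DMSO and 76.9 and 71.8 TPM with MS-275, a difference of -1.93 (adjusted p = 0.061 by limma). ENO3 had 3176 and 1392 TPM against 600 and 520 TPM (-1.91, adjusted p = 0.0683 by limma), and GAPDH 9404 and 4691 TPM against 2927 and 2866 TPM (-1.20, adjusted p = 0.239 by limma). In each the groups did not overlap, while the DMSO samples lay far apart. The non-muscle isoforms ENO1 (586 and 564 TPM against 531 and 628 TPM) and PGAM1 (37.2 and 58.6 TPM against 46.5 and 53.6 TPM) overlapped between the treatments.

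The called members of the respiratory chain were spread over complexes I to IV and ATP synthase. UQCRH, the hinge subunit of complex III, had 64.8 and 64.8 TPM with DMSO and 29.7 and 32.0 TPM with MS-275 in its called transcript, a difference of -1.07 (SE 0.16, adjusted p = 0.0186 by limma). NDUFA9, an accessory subunit of complex I, had 58.7 and 41.6 TPM against 24.9 and 22 TPM in 1 of its 3 transcripts (-1.07, adjusted p = 0.038 by limma). That transcript too was not listed through these libraries. NDUFA5, another accessory subunit of complex I, had 121 and 110 TPM against 63.0 and 51.3 TPM (-1.02, adjusted p = 0.0339 by limma). In all of these both MS-275 samples were the lower ones. COX7B, a small subunit of complex IV, had 23.9 and 27.1 TPM against 12.7 and 10.3 TPM in its minor transcript (-1.15, adjusted p = 0.0265 by limma). ATP5MF, a membrane subunit of ATP synthase, had 206 and 186 TPM against 103 and 73.7 TPM in its minor transcript (-1.17, adjusted p = 0.0431 by limma). SDHD-B, a membrane anchor of complex II, had 97.7 and 85.3 TPM against 47.9 and 46.9 TPM (-0.94, adjusted p = 0.0436 by limma). UQCRB and NDUFA8, named after their values were seen, were the other called members, with differences of -0.97 and -0.88.

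Most of the abundant transcripts of the chain, and IDH2 of the tricarboxylic acid cycle, were lower in both MS-275 samples without being called. ATP5ME had 1512 and 1255 TPM with DMSO and 908 and 703 TPM with MS-275 (-0.79, adjusted p = 0.176 by limma), and NDUFA3 382 and 304 TPM against 251 and 228 TPM (-0.51, adjusted p = 0.226 by limma). UQCRFS1 had 286 and 248 TPM against 173 and 168 TPM (-0.64, adjusted p = 0.113 by limma), and IDH2 815 and 456 TPM against 258 and 252 TPM (-1.26, adjusted p = 0.0745 by limma). SDHB, summed over its transcripts, had 156 and 123 TPM against 90.4 and 92.8 TPM (-0.60, adjusted p = 0.132 by limma). The groups did not overlap in these 5, while those of ATP5MC2 (1041 and 843 TPM against 877 and 738 TPM) did.

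**Figure D3:**
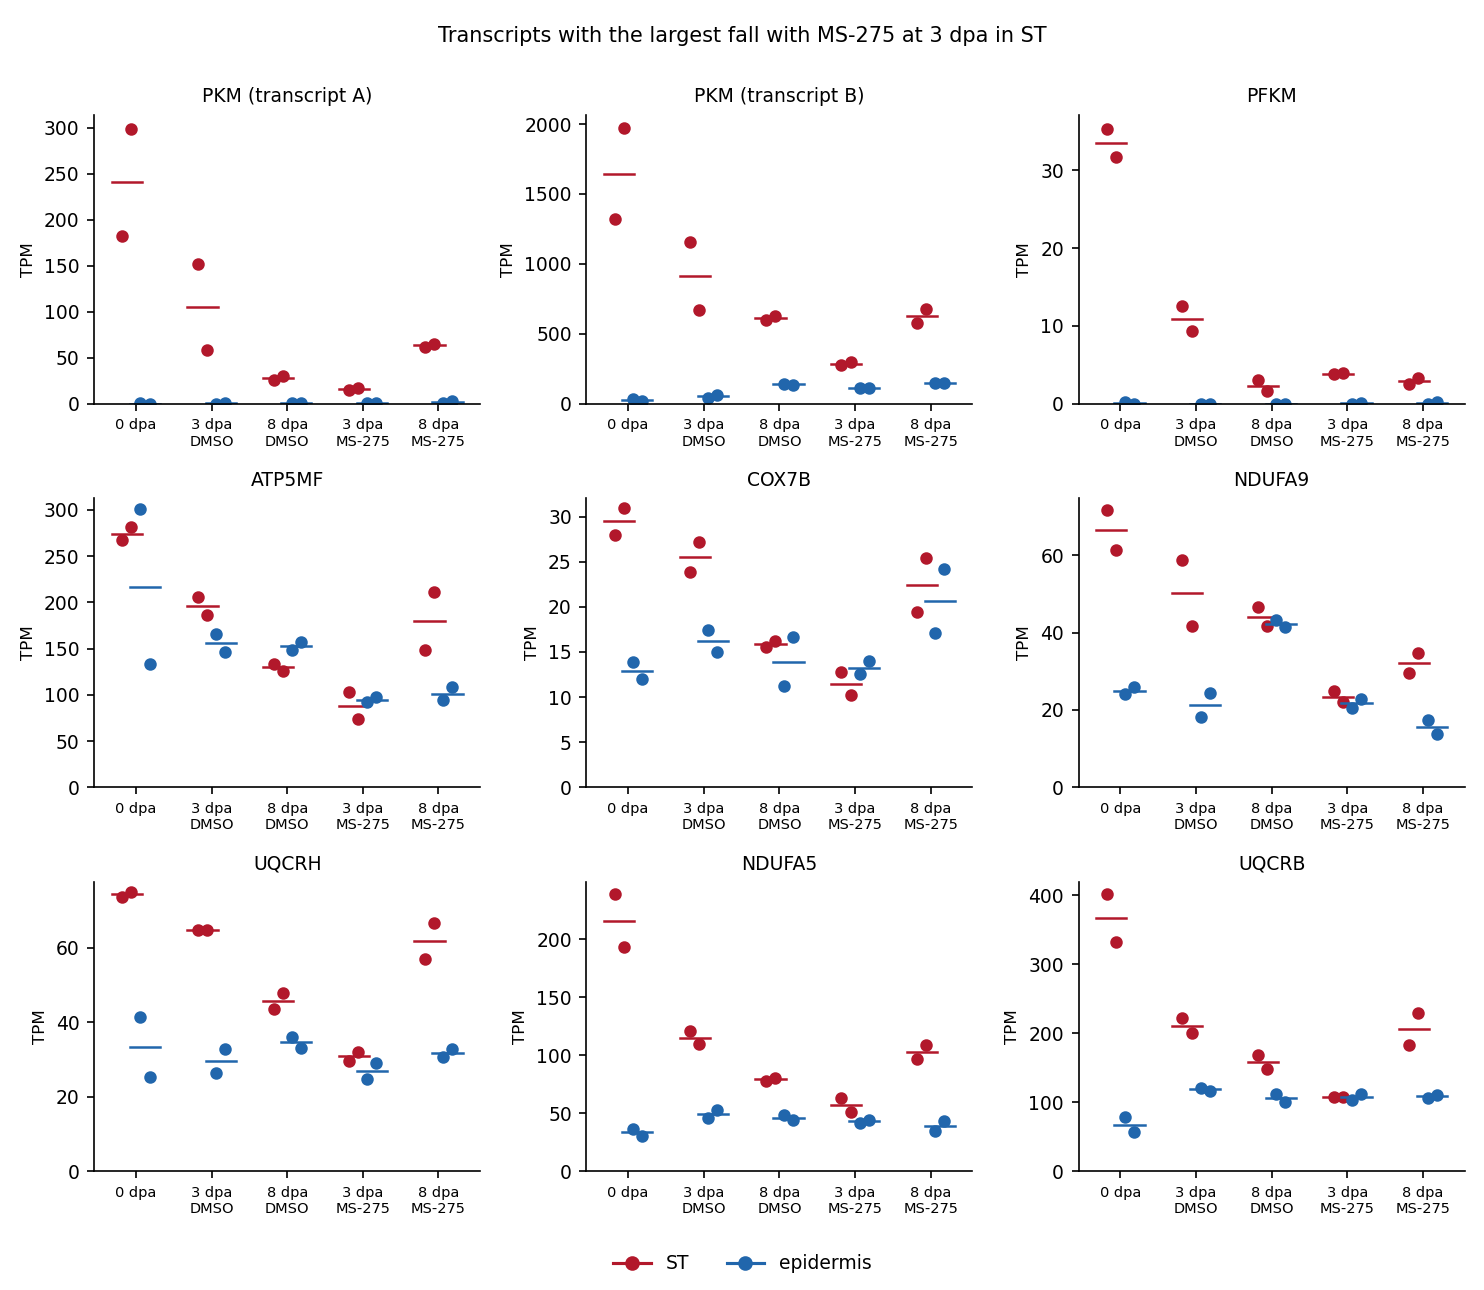
TPM in each sample of ST and epidermis of 9 of the 11 transcripts called lower with MS-275 at 3 dpa in ST, by days post-amputation and treatment, with a point for each sample and a line for each group mean. In ST at 3 dpa both MS-275 samples lay below both DMSO samples in every panel, for example 274 and 299 TPM against 1155 and 674 TPM in the abundant PKM transcript.

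These calls leaned on single libraries. Without the DMSO replicate 1, no member was called and the median was -0.49, without the MS-275 replicate 2 none was called, without the MS-275 replicate 1 there were 2, and without the DMSO replicate 2 there were 15. The markers of other cells also differed at 3 dpa. Summed muscle marker TPM was 28673 and 11139 with DMSO and 9895 and 7506 with MS-275 (2 of 74 called lower, median -0.29), and summed epidermal marker TPM was 63.2 and 153 against 911 and 2616 (20 of 22 called higher, median 4.75). Of all transcripts 3.48% were called, 0.616% lower. Of the epidermal markers, KRT6A and TP63 were at 0 in both DMSO samples. Leukocyte markers were at 1914 and 1999 TPM against 1363 and 1394 TPM. Connective tissue markers were at 2453 and 3790 TPM against 6470 and 4977 TPM (3 of 16 called higher, median 0.91). Markers of cycling cells (10 transcripts) were at 353 and 316 TPM against 249 and 195 TPM. Their part in the lower levels of the set was not tested.

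At 8 dpa the sums of the MS-275 samples lay above those of the DMSO samples. The respiratory chain and ATP synthase in ST summed to 18622 and 21552 TPM with MS-275 and 17765 and 16904 TPM with DMSO, and glycolysis and glycogen to 9462 and 9670 TPM against 6342 and 6492 TPM, both without overlap. Of 151 members, 3 were called higher and 2 lower (1.26% of all transcripts called), and 31 had an unadjusted p under 0.05. The median was 0.10 against -0.33 over all transcripts, and 90 members had a positive difference. With rescaling the median was 0.55, 139 differences were positive, and 2 members were called higher and none lower, against 0.403% and 0.107% of all transcripts. All calls fell among the 134 members listed through these DMSO libraries, and of the 17 others 6 had an unadjusted p under 0.05. No member was called when any 1 of the 4 libraries was left out. Muscle markers summed to 10732 and 10394 TPM with MS-275 and 4275 and 4793 TPM with DMSO (1 of 74 called higher, median 0.63). Connective tissue markers summed to 5800 and 4988 TPM against 9604 and 9664 TPM (3 of 16 called lower, median -0.81). Markers of cycling cells were at 229 and 287 TPM against 412 and 375 TPM, and epidermal markers at 120 and 116 TPM against 417 and 400 TPM. The part of all these markers was not tested.

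The 3 members that rose at 8 dpa belong to complex IV and its supercomplexes. COX7C, a small nuclear-encoded subunit, had 91.4 and 78.6 TPM with DMSO and 324 and 436 TPM with MS-275 in the called transcript, a difference of 2.15 (SE 0.23, adjusted p = 0.0149 by limma, a level 4.43-fold higher). COX7A1 had 118 and 120 TPM against 304 and 309 TPM, a difference of 1.36 (SE 0.23, adjusted p = 0.0408 by limma, 2.57-fold higher). COX7A2L, which joins complexes III and IV into supercomplexes, had 22 and 24 TPM against 56.2 and 59.6 TPM in its called, minor transcript (1.33, adjusted p = 0.0399 by limma). Its main transcript differed by 0.18 (adjusted p = 0.635 by limma). Summed over its transcripts COX7A2L had 167 and 158 TPM with DMSO against 213 and 219 TPM with MS-275. All MS-275 samples lay above the DMSO samples, and below the homeostatic samples for COX7A1 (958 and 812 TPM), COX7A2L (102 and 135 TPM) and COX7C (583 and 465 TPM). Summed over its transcripts, COX7C was 262 and 215 TPM with DMSO and 524 and 709 TPM with MS-275 (1.36, adjusted p = 0.0532 by limma).

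The 2 members that fell at 8 dpa were PFKL, with 18.1 and 18 TPM with DMSO and 6.45 and 6.70 TPM with MS-275 (-1.44, SE 0.26, adjusted p = 0.0481 by limma), and IDH3G, a regulatory subunit of the NAD-dependent isocitrate dehydrogenase of the tricarboxylic acid cycle, with 21.2 and 21.1 TPM against 9.98 and 10.4 TPM (-1.04, SE 0.18, adjusted p = 0.0422 by limma). In both the groups lay far apart and the replicates close together. With rescaling, both differences stayed negative but neither was called (adjusted p = 0.0748 and 0.131 by limma). The large glycolytic transcripts were higher in both MS-275 samples without being called, with ALDOA at 1184 and 1270 TPM against 574 and 489 TPM (1.21, adjusted p = 0.142 by limma), ENO3 at 1187 and 1213 TPM against 476 and 551 TPM (1.23, adjusted p = 0.212 by limma) and GAPDH at 4821 and 4668 TPM against 2954 and 3122 TPM (0.64, adjusted p = 0.534 by limma).

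Within MS-275 treated ST, levels were higher at 8 dpa than at 3 dpa in most members. No member was called (0.0366% of all transcripts were), while 55 had an unadjusted p under 0.05. The median was 0.44 against 0.04 over all transcripts, 130 of 151 differences were positive, and both 8 dpa samples lay above both 3 dpa samples in 108 members and below them in 6, against 22.1% and 21.1% of all transcripts. Rescaling left this nearly as it was (median 0.42, with 110 members above and 7 below, against 22.2% and 22.3% of all transcripts). Complex I had 43 of 44 differences positive (median 0.46), complex III 9 of 10 (median 0.67) and glycolysis 12 of 17 (median 0.19). COX7A1 had the lowest p of the set, with 105 and 80.8 TPM at 3 dpa and 304 and 309 TPM at 8 dpa (1.74, adjusted p = 0.0713 by limma), followed by UQCRH with 29.7 and 32.0 TPM and then 56.8 and 66.5 TPM (0.99, adjusted p = 0.0937 by limma). Between these samples the epidermal markers went from 911 and 2616 TPM to 120 and 116 TPM (median -4.0). The muscle markers went from 9895 and 7506 TPM to 10732 and 10394 TPM in sum, with a median of -0.13. The part of these markers was not tested.

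With DMSO the same step went the other way. From 3 to 8 dpa, 7 members were called lower and 2 higher (1.91% of all transcripts called), with a median of -0.25 against 0.47 over all transcripts, a contrast that the lists had used. With rescaling 3 were called lower and none higher (0.0788% and 0.168% of all transcripts), and without the 3 dpa replicate 1 or either 8 dpa replicate none was called. The difference between the MS-275 effects at 8 and 3 dpa was tested in a contrast added after the data were seen. It was called for 7 members, all higher at 8 dpa (1.24% of all transcripts called), with a median of 0.64 against -0.42 over all transcripts. All 7 had been listed through ST libraries of this contrast, so the count is a description, and of the 15 members not so listed none was called and 1 had an unadjusted p under 0.05. The 7 were 1 transcript each of COX7A1, COX7A2L, COX7B, COX7C, UQCRH, NDUFS7 and PKM, and with rescaling COX7A1 and COX7C stayed called (0.0594% of all transcripts were higher). In epidermis the same test called 7 members lower and 5 higher (4.50% of all transcripts), and among the 109 members that no epidermal list held 3 lower and none higher, or none lower and 3 higher with rescaling.

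**Figure D4:**
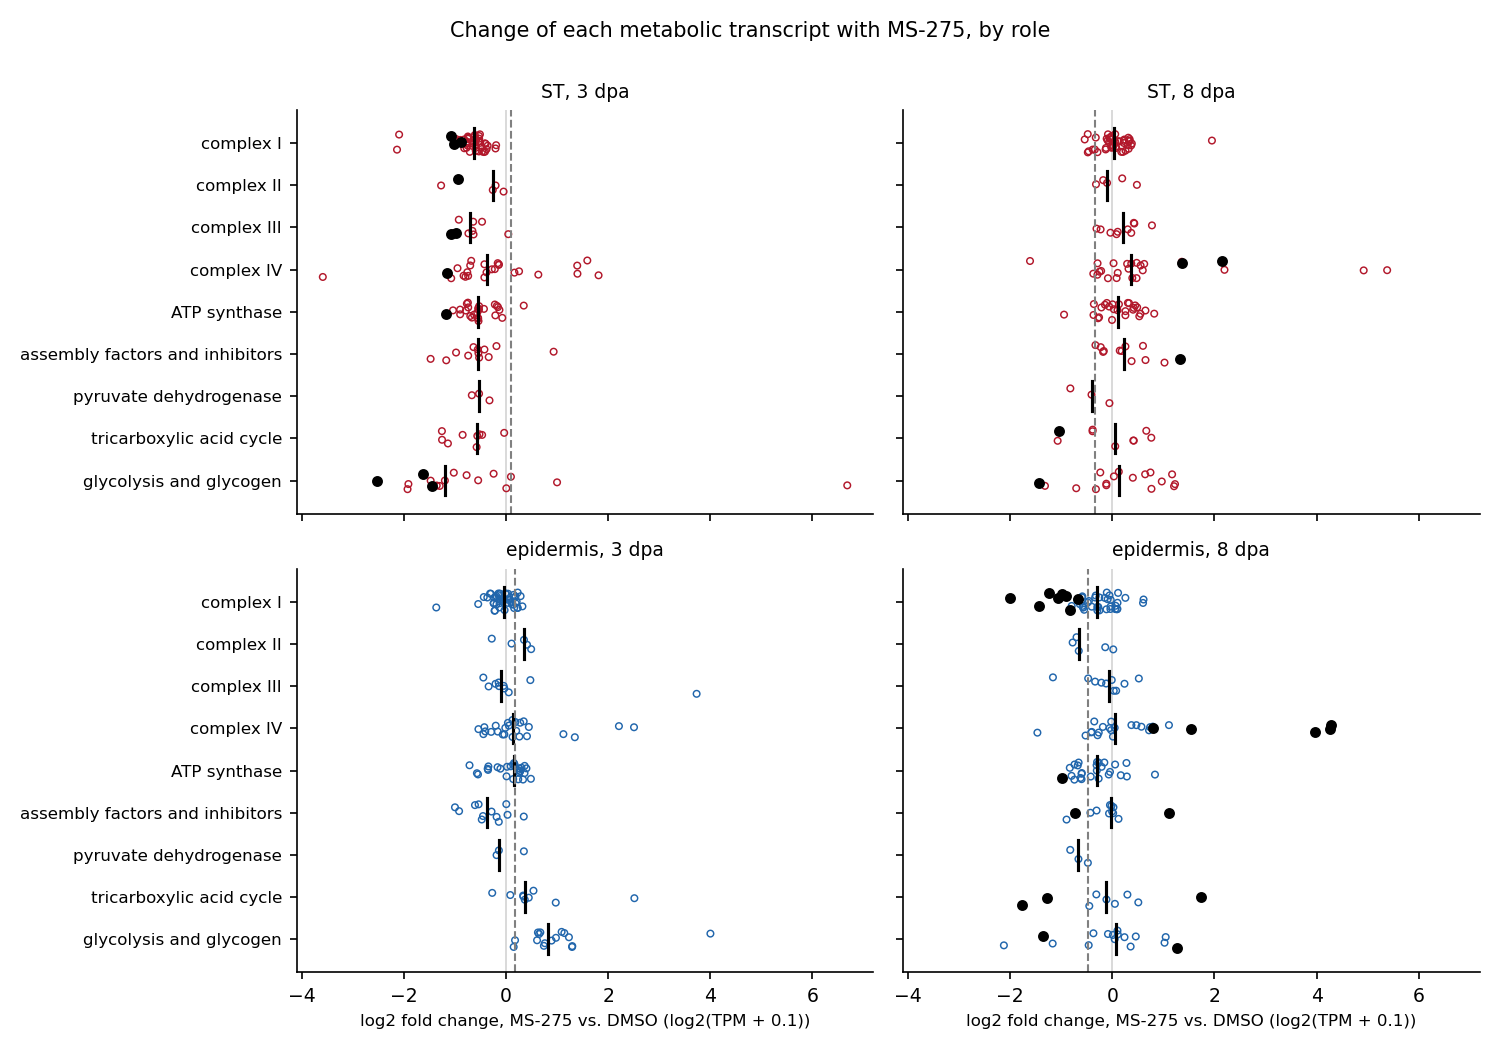
Difference of MS-275 from DMSO (log2 scale) of every member by role, in 4 panels for ST and epidermis at 3 and 8 dpa, with filled black points for called members, a black bar at the median of each role and a dashed line at the median of all transcripts. In ST at 3 dpa the medians of all roles were below 0, lowest for glycolysis and glycogen at -1.20.

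In the epidermis, levels of the set were lower and steadier. The respiratory chain and ATP synthase summed to 11825 and 11181 TPM at 0 dpa, 14379 and 14799 TPM at 3 dpa and 15005 and 15110 TPM at 8 dpa with DMSO, and glycolysis and glycogen to 1447 and 1691 TPM, 1564 and 1853 TPM, and 2805 and 3079 TPM. Of the 150 members tested, 8 were called higher and none lower at 3 dpa vs. 0 dpa (1.18% of all transcripts called), and 22 higher and 3 lower at 8 dpa vs. 0 dpa (5.68%). With rescaling these became 22 higher and none lower (1.84% and 0.739% of all transcripts), and 8 higher and 5 lower (2.16% and 1.36%). The 109 members that only the ST lists held entered without an epidermal listing. Their absence from the epidermal lists was itself a choice made on these libraries, so their counts are a description. Among these 109 none was called at 3 dpa (21 with an unadjusted p under 0.05, median 0.21 against -0.18 over all transcripts). At 8 dpa, 3 of the 109 were called higher and none lower (median 0.44 against 0.32 over all transcripts). These 3 were NDUFS1, a core subunit of complex I, NDUFB7 and ATP5F1A, the alpha subunit of ATP synthase. With rescaling that median was -0.03 and none of the 3 was called, so that the direction depended on the scaling. Between 3 and 8 dpa, 8 members were called higher and 5 lower (5.78%), and 1 higher and 16 lower with rescaling (0.731% and 0.774%).

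Enzymes of lower glycolysis, all listed in epidermis, are shown for their range in the control. The abundant PKM transcript went from 32.0 and 22.5 TPM at 0 dpa to 44.5 and 60.4 TPM at 3 dpa and to 141 and 135 TPM at 8 dpa. ENO1 went from 183 and 264 TPM to 268 and 273 TPM and to 643 and 694 TPM, and LDHA from 160 and 132 TPM to 184 and 230 TPM and to 268 and 259 TPM. As deposited, in PKM, ENO1 and LDHA the 8 dpa samples were above the 3 dpa samples, which were above the 0 dpa samples. Rescaling divided the 3 dpa samples by 0.73 and 0.99 and the 8 dpa samples by 1.44 and 1.34. With it PKM and ENO1 kept this order, while LDHA was lower at 8 dpa than at 3 dpa. COX6B1, a subunit of complex IV on its outer face, went from 2.40 and 0.78 TPM to 26.2 and 55.0 TPM and to 240 and 234 TPM in 1 of its transcripts.

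At 3 dpa no member was called between MS-275 and DMSO in epidermis (0.418% of all transcripts were), and 27 had an unadjusted p under 0.05. Without the DMSO replicate 2, 6 were called higher and 1 lower. The median was 0.09 against 0.17 over all transcripts, and with rescaling it was -0.15. Glycolysis and glycogen stood apart from the other roles, with all 16 differences positive (median 0.83, 10 with an unadjusted p under 0.05), and 14 of 16 positive with rescaling (median 0.58). ENO1 had 646 and 624 TPM with MS-275 and 268 and 273 TPM with DMSO, a difference of 1.23 (adjusted p = 0.0616 by limma). The abundant PKM transcript had 116 and 113 TPM against 44.5 and 60.4 TPM (1.14, adjusted p = 0.0704 by limma), and LDHA 391 and 373 TPM against 184 and 230 TPM (0.89, adjusted p = 0.09 by limma). In each the MS-275 samples lay above the DMSO samples. For ENO1 they were, as deposited, at about the level that the DMSO epidermis had at 8 dpa (643 and 694 TPM).

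The effect of MS-275 at 3 dpa differed between the tissues in 4 members. In the test of ST minus epidermis these 4 of 151 were called, all more negative in ST (0.417% of all transcripts called), and 73 had an unadjusted p under 0.05. All 4 had been listed through DMSO libraries that this test used, so the count is a description, and of the 44 members not so listed none was called and 22 had an unadjusted p under 0.05. The median of all members was -0.67 against -0.05 over all transcripts, and for glycolysis and glycogen it was -1.92. PKM differed by -2.77 (SE 0.39, adjusted p = 0.0125 by limma), with the lower level in ST and the higher level in epidermis given above. LDHA differed by -1.92 (SE 0.27, adjusted p = 0.0142 by limma), with 825 and 630 TPM under DMSO and 346 and 363 TPM under MS-275 in ST. PGAM2 differed by -2.10 (SE 0.40, adjusted p = 0.0453 by limma, and 0.0919 with rescaling), and MDH1, the cytosolic malate dehydrogenase, by -2.23 in 1 of its transcripts (SE 0.42, adjusted p = 0.043 by limma). Without either epidermal MS-275 replicate no member was called, without the ST DMSO replicate 1 or the ST MS-275 replicate 2 there were 2, and without the ST DMSO replicate 2 there were 12. At 8 dpa the test found no member (0.0455% of all transcripts called), and 21 had an unadjusted p under 0.05.

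At 8 dpa in epidermis, the direction of the set depended on the scaling. Of 150 members, 13 were called lower and 8 higher with MS-275 as deposited, while 10.2% of all transcripts were called lower and 2.0% higher (12.2% in all). With rescaling 2 were called lower and 20 higher, against 1.82% and 3.13% of all transcripts. The median of the members was -0.20 against -0.48 over all transcripts, and 0.52 with rescaling. The sums were close, with 13870 and 13750 TPM for the respiratory chain and ATP synthase against 15005 and 15110 TPM with DMSO, and 3332 and 3007 TPM for glycolysis and glycogen against 2805 and 3079 TPM. Of the 122 members not listed through these DMSO libraries, 11 were called lower and 1 higher, and 1 lower and 8 higher with rescaling. Of the 150, the members called numbered 1 without the DMSO replicate 1, 5 without the DMSO replicate 2, 5 without the MS-275 replicate 1 and 2 without the MS-275 replicate 2.

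The members called higher were mostly of complex IV. COX7C had 26.7 and 9.97 TPM with DMSO and 276 and 239 TPM with MS-275, a difference of 3.97 (SE 0.43, adjusted p = 0.00354 by limma, 15.6-fold higher), in the same transcript that rose in ST. Summed over its transcripts COX7C had 135 and 126 TPM against 452 and 430 TPM (1.76, adjusted p = 0.00507 by limma). The DMSO samples at 8 dpa were the lowest of the epidermis in that transcript, below the 102 and 70.8 TPM at 0 dpa and the 236 and 180 TPM at 3 dpa. That transcript had been listed through these 8 dpa DMSO libraries. COX7B, in its abundant transcript, had 314 and 317 TPM against 544 and 549 TPM (0.79, adjusted p = 0.0303 by limma, 1.73-fold higher). ENO3, which alone of those called higher was in no epidermal list, had 52.0 and 71.8 TPM against 148 and 146 TPM (1.26, SE 0.21, adjusted p = 0.0122 by limma, 2.40-fold higher). In all of these the groups lay well apart. COX20, an assembly factor of complex IV, and IDH1, the cytosolic isocitrate dehydrogenase, rose by 1.10 and 1.74 at levels of at most 6.02 and 3.23 TPM in these groups.

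Both minor transcripts of COX5A, a structural subunit of complex IV, rose by 4.26 and 4.28 (adjusted p = 0.00939 and 0.00592 by limma), but the symbol as a whole did not move. Its minor transcripts had 1.48 and 1.38 TPM, and 0.38 and 0.32 TPM, with DMSO against 18.7 and 45.8 TPM, and 5.76 and 12.8 TPM, with MS-275. The main transcript had 244 and 266 TPM against 221 and 168 TPM, and all transcripts together had 246 and 267 TPM against 246 and 227 TPM (-0.12, adjusted p = 0.685 by limma). COX6C behaved alike, with 1.54 for its called transcript and -0.02 for the sum.

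Of the 13 members called lower, 8 were of complex I. In 1 of its 3 transcripts NDUFA9 had 43.1 and 41.4 TPM with DMSO and 17.4 and 13.9 TPM with MS-275, a difference of -1.44 (SE 0.20, adjusted p = 0.00689 by limma, 2.71 times lower). With rescaling this difference was -0.73 (adjusted p = 0.0414 by limma). Summed over its transcripts NDUFA9 had 107 and 109 TPM against 56.1 and 56.9 TPM. The called transcript made up 40.5% and 38.1% of that sum with DMSO and 30.9% and 24.4% with MS-275. MDH1 had 126 and 93.1 TPM against 29.7 and 33.5 TPM in its called transcript (-1.78, adjusted p = 0.00877 by limma, 3.42 times lower), and the sum over its transcripts differed by -0.21. These transcripts of NDUFA9 and MDH1 were the 2 members still called lower with rescaling. NDUFS1 had 39.0 and 46.2 TPM against 18.5 and 17.2 TPM (-1.25, adjusted p = 0.00898 by limma). IDH3G had 21.9 and 21.8 TPM against 9.05 and 8.93 TPM (-1.27, adjusted p = 0.00888 by limma) and PFKL 9.44 and 8.36 TPM against 3.73 and 3.07 TPM (-1.37, adjusted p = 0.0198 by limma). The same 2 transcripts of IDH3G and PFKL were called lower in ST at this time. NDUFS3, a core subunit of complex I, fell by 2.0 in a transcript of at most 3.25 TPM in both groups. Others called lower were NDUFA10, NDUFA12, NDUFB5 and NDUFS4 of complex I and COX16, an assembly factor of complex IV. A minor transcript of ATP5MC3, a ring subunit of ATP synthase, was also called lower. These differences ran from -1.07 to -0.68. Summed over its transcripts ATP5MC3 had 562 and 581 TPM with DMSO against 599 and 575 TPM with MS-275.

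**Figure D5:**
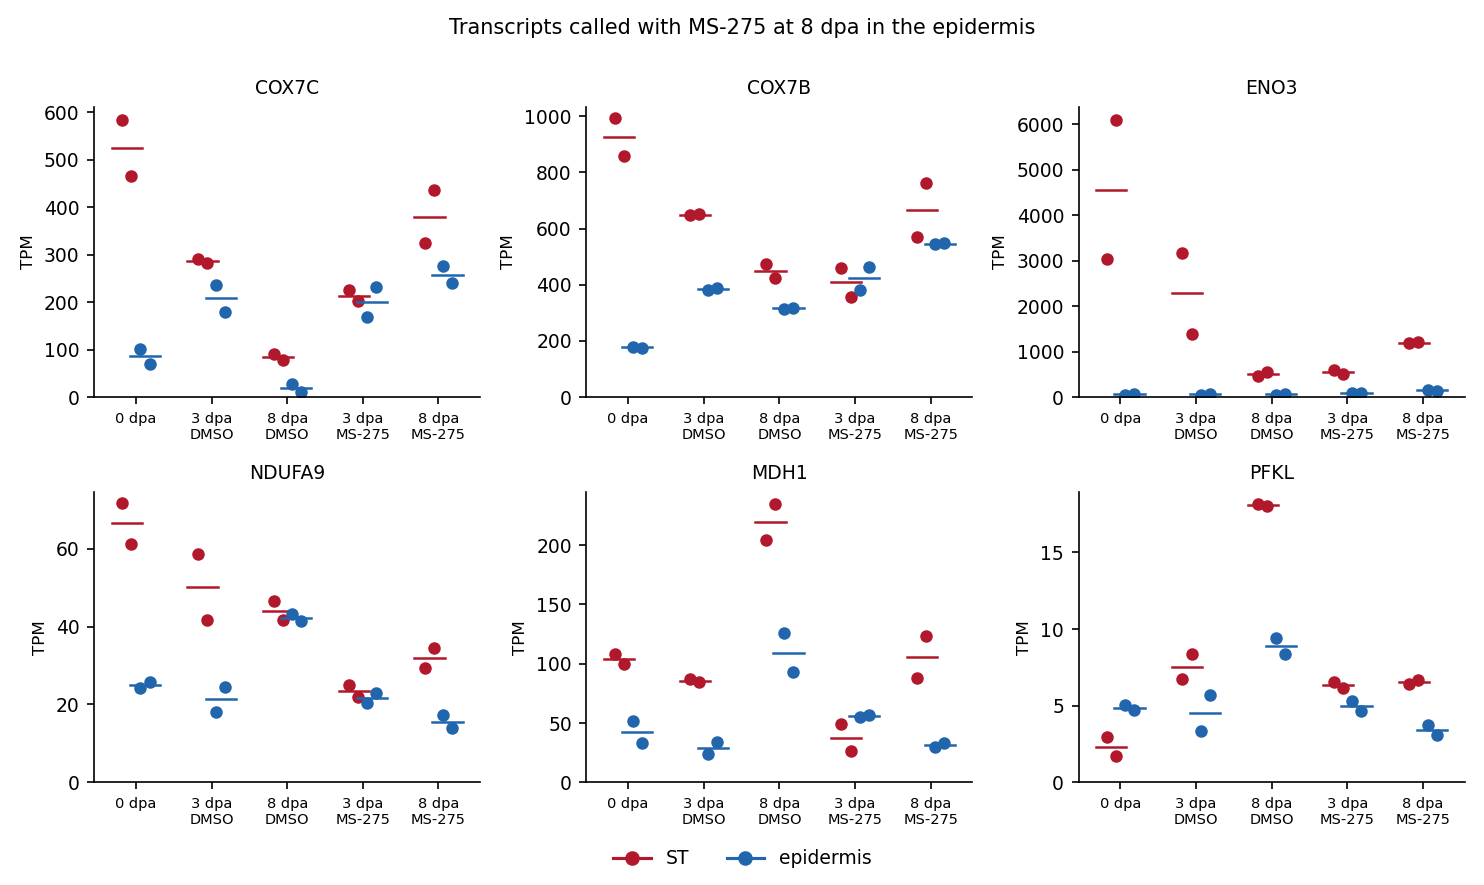
TPM in each sample of ST and epidermis of 6 transcripts called between MS-275 and DMSO at 8 dpa in epidermis, by days post-amputation and treatment, with a point for each sample and a line for each group mean. In epidermis at 8 dpa COX7C stood at 26.7 and 9.97 TPM with DMSO and at 276 and 239 TPM with MS-275, and NDUFA9 at 43.1 and 41.4 TPM and at 17.4 and 13.9 TPM.

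Markers of other cells moved in the epidermis as well. Muscle marker TPM at 8 dpa was 3.04 and 4.06 with DMSO and 222 and 279 with MS-275. Of 64 tested, 16 were called higher (median 2.48, against 2.0% of all transcripts called higher), or 12 with rescaling (3.13%). In the DMSO samples 36 of the 74 marker transcripts were at 0 in both, with all transcripts of 7 symbols such as MYH2, MYL1 and TCAP. Epidermal markers were at 6464 and 6876 TPM against 5812 and 8040 TPM. Of 23, 8 were called lower and 1 higher (10.2% and 2.0% of all transcripts), with a median of -0.70. Their direction depended on the scaling, with 3 lower and 5 higher with rescaling (1.82% and 3.13%) and a median of 0.01. At 3 dpa muscle marker TPM was 14.7 and 172 with DMSO and 171 and 316 with MS-275. Their part in the levels of ENO3, COX7A1 and the other muscle isoforms was not tested. Within MS-275 treated epidermis, no member was called between 8 and 3 dpa (0.0363% of all transcripts called), 42 had an unadjusted p under 0.05, and the median was -0.21, or 0.03 with rescaling.

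Other genes of the same pathways, 63 transcripts of 44 genes, were read beside the members. They too could enter only through the study's lists of control limbs. In ST at 3 dpa, 5 were called lower and 3 higher with MS-275 (3.48% of all transcripts called, 0.616% lower). With rescaling 4 were called lower and 1 higher (0.551% of all transcripts lower). Those lower included the phosphate carrier SLC25A3 (-2.06), an ADP/ATP carrier transcript SLC25A4 (-1.94) and both FBP2 transcripts, the muscle fructose bisphosphatase (-2.57 and -1.76). Those higher were SLC25A6, another ADP/ATP carrier (1.0), SLC16A3, a lactate exporter (2.33), and FBP1, the liver fructose bisphosphatase (1.10). SLC16A3 was near the floor, with 0.09 and 0.11 TPM with DMSO and 0.78 and 1.04 TPM with MS-275. In ST at 0 dpa it had 13.9 and 7.32 TPM. At 8 dpa in ST, SLC25A6 alone was called (1.45, adjusted p = 0.0245 by limma), against 1.26% of all transcripts. In epidermis SLC25A6 and SLC16A3 were called higher at 3 dpa (1.25 and 2.48), against 0.418% of all transcripts called. At 8 dpa 17 of 62 were lower and 7 higher (10.2% and 2.0% of all transcripts). With rescaling 3 were lower and 9 higher (1.82% and 3.13% of all transcripts).

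SLC25A6 was called higher with MS-275 in both tissues at both times (in ST at 3 dpa with an adjusted p of 0.0331 by limma, and 0.054 with rescaling). It had 65.2 and 52.5 TPM with DMSO and 126 and 110 TPM with MS-275 in ST at 3 dpa, and 46.4 and 41.2 TPM against 118 and 121 TPM at 8 dpa. In epidermis it had 31.9 and 37.6 TPM against 86.1 and 79.1 TPM at 3 dpa, and 30.2 and 28.6 TPM against 105 and 96.8 TPM at 8 dpa. In each of the 4 the MS-275 samples lay above the DMSO samples and above the homeostatic samples of their tissue (14.7 and 12 TPM in ST, 30.1 and 32.7 TPM in epidermis).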

How the data were processed

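TPM values had been made and deposited by the authors, who per the submitters' processing notes used cutadapt, Bowtie 2 and RSEM; reads were aligned to an axolotl transcriptome with human symbols. TPM sum to the same total in each library and keep no depth, so no count test was run. Contrasts were fitted here with limma 3.58.1 (R 4.3.3, with the package data.table at version 1.17.8) on log2(TPM + 0.1) with an intensity trend, over the 5 groups (10 samples) of a tissue, or over 20 samples for contrasts of tissues. Transcripts above 0 TPM in at least 5 of 10 samples were tested (87546 in ST, 88139 in epidermis, and 96627 over both). Benjamini-Hochberg adjustment ran over all of them. Scripts were tested on simulated data.

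Members, marker lists and other pathway genes were chosen with earlier results of these data known. Symbols of members, markers and pathway genes came from shortened copies of the study's lists, so further ones may exist among unlisted transcripts. The authors' fold changes and p-values were not used. Named transcripts were the 3 with the highest mean TPM in each role, those of a fixed isoform list, and up to 8 called members for each contrast of MS-275 with DMSO by size of change. Others were named after their values were seen. Some named results are not reported here. The library kit is given differently by the labels and the methods. No sequences were at hand.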

Additional observations from a re-analysis of the deposited data

Results flagged for a closer look

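Results are given here where the effect of MS-275 differed between groups by a test of the difference itself (limma, Benjamini-Hochberg over all transcripts). At 3 dpa, the effect in ST minus that in epidermis was -1.92 for LDHA (adjusted p = 0.0142), -2.10 for PGAM2 (adjusted p = 0.0453), -2.77 for the abundant PKM transcript (adjusted p = 0.0125) and -2.23 for a minor MDH1 transcript (adjusted p = 0.043). All 4 had been listed through DMSO libraries that this test used.

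Within ST, the effect at 8 dpa minus that at 3 dpa was a contrast added after the data were seen. It was 2.31 for COX7A1 (adjusted p = 0.0304), 2.31 for the minor COX7A2L transcript (adjusted p = 0.0288) and 2.57 for COX7C (adjusted p = 0.0246). It was 1.63 for the minor COX7B transcript (adjusted p = 0.0414), 1.5 for UQCRH (adjusted p = 0.0335), 4.09 for a minor NDUFS7 transcript (adjusted p = 0.047) and 3.71 for the minor PKM transcript (adjusted p = 0.0392). All 7 had been listed through ST libraries of this contrast. The NDUFS7 transcript had 72.0 and 23.8 TPM with DMSO and 13.4 and 6.52 TPM with MS-275 at 3 dpa, and 7.53 and 5.54 TPM against 21.8 and 29.3 TPM at 8 dpa. Summed over its transcripts, NDUFS7 had 140 and 93.4 TPM against 67.4 and 59.9 TPM at 3 dpa (-0.85, adjusted p = 0.106) and 85.2 and 82.6 TPM against 91.7 and 117 TPM at 8 dpa (0.30, adjusted p = 0.545).

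Within epidermis the same difference was positive for COX7C (4.03, adjusted p = 0.0167), both minor COX5A transcripts (4.72 and 4.67, adjusted p = 0.0222 and 0.0344), COX6C (2.08, adjusted p = 0.044) and COX20 (1.58, adjusted p = 0.0291). It was negative for 1 of the 5 COX6B1 transcripts (-3.97, adjusted p = 0.024), MDH1 (-2.75, adjusted p = 0.0128) and 2 COX8A transcripts (-1.70 and -1.39, adjusted p = 0.0264 and 0.0391). It was also negative for NDUFS1 (-1.57, adjusted p = 0.0228), 1 of the 3 NDUFA9 transcripts (-1.48, adjusted p = 0.031) and LDHB (-1.22, adjusted p = 0.0482). With rescaling, of the negative ones only MDH1 was called (adjusted p = 0.0481). The COX6B1 transcript had 26.2 and 55.0 TPM with DMSO and 194 and 241 TPM with MS-275 at 3 dpa, and 240 and 234 TPM against 93.0 and 78.8 TPM at 8 dpa. Summed over its transcripts, COX6B1 had 578 and 570 TPM against 887 and 862 TPM at 3 dpa (0.61, adjusted p = 0.546) and 771 and 749 TPM against 728 and 511 TPM at 8 dpa (-0.32, adjusted p = 0.642).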

How the results depend on the processing

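Counts of called members moved with the settings. For ST at 3 dpa vs. 0 dpa the 60 calls became 95 with a mean TPM of at least 1, 122 with rescaling and 15 with no trend. For ST at 8 dpa vs. 3 dpa with DMSO, the 9 became 15 at that mean, 3 with rescaling, 0 with no trend, 4 summed per symbol and 15 with all 20 samples in 1 model. For MS-275 vs. DMSO in ST at 3 dpa, the 11 became 28 at that mean, 4 with no filter beyond TPM above 0, 7 with rescaling, 1 with no trend, 7 per symbol and 40 with all 20 samples. At 8 dpa the 5 became 2 with rescaling, 1 with no trend and 3 per symbol. For MS-275 in ST at 8 dpa vs. 3 dpa, the 0 became 1 with a pseudocount of 1, 1 at that mean and 8 with all 20 samples. In epidermis, the 8 at 3 dpa vs. 0 dpa became 22 at that mean, 5 with no filter, 22 with rescaling, 3 with no trend, 5 per symbol and 18 with all 20 samples. The 25 at 8 dpa vs. 0 dpa became 41 at that mean and 13 each with rescaling, no trend and per symbol, and the 13 at 8 dpa vs. 3 dpa became 23, 4 with no trend and 6 per symbol. For MS-275 in epidermis, the 0 at 3 dpa became 4 with a pseudocount of 1, 8 at that mean and 4 with all 20 samples, and the 21 at 8 dpa became 39 and, with no trend, 12. ST vs. epidermis at 8 dpa had 18 in place of 29 with no trend. The difference between tissues had 9 at that mean and 2 with no trend in place of 4 at 3 dpa, and 1 in place of 0 with a pseudocount of 1 at 8 dpa. The cause of these moves was not tested.

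With 1 replicate left out, where the lone sample is assumed to vary like the other groups, counts ranged in ST from 16 to 52 at 3 dpa vs. 0 dpa, 50 to 106 at 8 dpa vs. 0 dpa, 0 to 12 at 8 dpa vs. 3 dpa with DMSO, 0 to 15 for MS-275 at 3 dpa and 0 to 0 for MS-275 at 8 dpa and at 8 dpa vs. 3 dpa. In epidermis they ranged from 5 to 7, 7 to 17 and 1 to 26 over time, and for MS-275 from 0 to 7 at 3 dpa, 1 to 5 at 8 dpa and 0 to 0 at 8 dpa vs. 3 dpa. ST vs. epidermis ranged from 120 to 127 at 0 dpa and 15 to 18 at 8 dpa, and the difference between tissues from 0 to 12 at 3 dpa and 0 to 0 at 8 dpa.

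Correlations of same-numbered deviations lay between -0.117 and 0.126 within a tissue and between 0.0281 and 0.152 for ST with epidermis of a group. Per the methods the groups held different animals, so correlations within a tissue could not show shared animals. Whether same-numbered ST and epidermis samples of a group shared animals was not settled by these values. With the replicate number as a block, the calls were 4 in ST at 8 dpa vs. 3 dpa with DMSO, 3 and 1 for MS-275 in ST at 3 and 8 dpa, 4 in epidermis at 3 dpa vs. 0 dpa and 17 for MS-275 in epidermis at 8 dpa. Among the named called members, COX7C in epidermis at 8 dpa was the one called under all 11 alternatives (adjusted p from 0.000101 to 0.0374 by limma). That COX7C transcript had been listed through the 8 dpa DMSO libraries of epidermis, which the alternatives reuse in whole or in part, so this is a description. Depth is unknown, so low transcripts such as NDUFS3 or IDH1 carry an unknown counting error.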

Other observations

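Some transcripts differed widely between the replicates of a group. A UQCR11 transcript had 133 and 0.51 TPM in control epidermis at 3 dpa, and a COX6C transcript 36.6 and 0 TPM in ST with MS-275 at 3 dpa. An MDH2 transcript had 85.0 and 2.58 TPM in epidermis at 0 dpa. Over all members the median ratio of the higher to the lower replicate lay between 1.08 and 1.24 in the 10 groups.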
